A study of Mus musculus with 12 samples.

Results

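The autophagy and lysosome genes of the hypertrophic zone were followed in 4 mouse genotypes. The list held 47 genes: 17 that build the autophagosome, 14 that encode proteins of the lysosomal lumen, 6 of the lysosomal membrane together with the transcription factor Tfeb, and 10 of the vacuolar proton pump (V-ATPase). A gene was a member if the array annotation placed a probe under its symbol and that probe had a detection score above 0.95 on 3 or more of the 12 arrays. This held for 39 genes with 50 probes, of 7642 genes and 12023 probes tested in all. Nbr1, Gabarapl2, Atg4b, Ctsd, Ctsl, Tpp1, Tfeb and Atp6v0c had no named probe and were not analysed here. The members by role were 14 autophagosome genes, 11 lumen genes, 5 membrane genes and 9 V-ATPase genes, and each gene is represented by its brightest tested probe.

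RNA came from hypertrophic zones cut from 1 proximal tibial growth plate of each of 3 mice per genotype, 2 weeks old and of mixed background, and was amplified and hybridised singly to Illumina MouseWG-6 arrays. The C/X mice carried both alterations, namely a homozygous knock-in of collagen X p.Asn617Lys and the loss of Xbp1 exon 2 in cells that had expressed a Col2a1-driven Cre. ColXN617K mice carried the knock-in alone, a misfolding collagen X made only by hypertrophic chondrocytes, and model Schmid metaphyseal chondrodysplasia. Xbp1CartΔEx2 mice carried the Xbp1 deletion alone, and Wt mice carried neither. XBP1 is the transcription factor of the IRE1 arm of the unfolded protein response, and since Cre was driven in the Col2a1-expressing lineage, cells of other origin in the tissue kept Xbp1.

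In macroautophagy a kinase complex around ULK1 starts a membrane, WIPI proteins bind its phosphatidylinositol 3-phosphate, and the ATG5, ATG12 and ATG16L1 complex attaches LC3 and GABARAP proteins to its lipid. Cargo receptors such as p62, the product of Sqstm1, join ubiquitinated cargo to LC3, and the closed autophagosome fuses with a lysosome. There V-ATPase pumps protons and the acid hydrolases of the lumen degrade the cargo. The factors TFEB and TFE3 activate many of these genes through an E-box in their promoters, and the pathway is known for clearing misfolded procollagen and for supporting chondrocyte survival in cartilage.

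Because this E-box is the best known sequence shared by lysosomal genes, promoter windows of the members were searched for it in RefSeq sequence of mouse build GRCm38.p6, from 250 bases before to 50 after each start site. Windows were held for 32 of the 39 members, 35 windows in all. The letters CACGTG, read on both strands and the same on each, occurred in 12 of the 35 windows (34.3%) and in 7.15% of all 32851 windows. The longer palindrome TCACGTGA, which contains CACGTG and is the core of the TFEB element, occurred in 6 of the 35 (17.1%) and in 0.974% of all windows. The ATF4 composite element TGATGNAA occurred in 0 of the 35 (3.97% of all) and TGACGTGG, a core bound by XBP1, in 0 of the 35 (0.676% of all).

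The 95 bases from 75 before to the first 20 of the transcript are shown for 5 members, 3 whose probes were called in the comparisons below and 2 whose probes were not, so that the shared letters can be compared. Capitals mark TCACGTGA, or CACGTG where the flanking bases differ. Ctsa is shown from the only one of its windows that held these letters. The stretches are all on the plus strand, at chr17:25133316-25133410 for Clcn7, chr2:164833698-164833792 for the second of the start sites of Ctsa, chr9:114401003-114401097 for Glb1, chr8:3500444-3500538 for Mcoln1 and chr8:13159086-13159180 for Lamp1.
Clcn7: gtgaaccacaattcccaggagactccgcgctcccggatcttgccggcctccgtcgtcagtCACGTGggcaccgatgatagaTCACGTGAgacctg
Ctsa: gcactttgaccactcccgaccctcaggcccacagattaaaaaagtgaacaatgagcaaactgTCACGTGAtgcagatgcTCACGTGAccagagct
Glb1: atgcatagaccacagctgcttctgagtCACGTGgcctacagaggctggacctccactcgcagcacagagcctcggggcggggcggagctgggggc
Mcoln1: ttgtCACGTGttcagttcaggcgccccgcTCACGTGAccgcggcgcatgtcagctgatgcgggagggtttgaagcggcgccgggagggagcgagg
Lamp1: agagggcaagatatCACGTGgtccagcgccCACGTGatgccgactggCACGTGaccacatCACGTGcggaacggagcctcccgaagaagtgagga
Among the 12 members called in at least 1 comparison, 10 had a window and 3 of these held CACGTG, and among the 27 called in none, 22 had a window and 9 held it. The letters were thus found among members that were higher in C/X (Clcn7, Ctsa), lower in C/X (Glb1) and not called (Lamp1, Mcoln1).

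Values below are log2 intensities after background correction and quantile normalization, and levels of different probes cannot be set against each other. The share of probes on the array with a detection score above 0.95 was 17.2% to 24.4% on C/X arrays, 17.1% to 28.4% on ColXN617K arrays, 19.6% to 23.1% on Xbp1CartΔEx2 arrays and 17.3% to 17.7% on Wt arrays. The median raw intensity was 373 to 584 on C/X arrays, 221.3 to 334 in ColXN617K, 371.7 to 453.9 in Xbp1CartΔEx2 and 366.9 to 421 in Wt. Before normalization every ColXN617K array was thus dimmer than every other array. The lowest detected signal after normalization was 7.07 to 7.68 on C/X arrays and 6.90 to 7.70 in ColXN617K. It was 7.14 to 7.41 in Xbp1CartΔEx2 and 7.62 to 7.68 in Wt. A probe of the same level could thus be detected on some arrays and not on others. Replicate 3 of ColXN617K and replicate 3 of C/X stood apart from the other arrays of their genotype. The lowest correlation within a genotype, over all tested probes, was 0.915 in C/X, 0.868 in ColXN617K, 0.96 in Xbp1CartΔEx2 and 0.957 in Wt. Col10a1, the mutated gene, was detected on all arrays, at medians of 9.27 in C/X and 8.48 in ColXN617K, against 11.70 in Xbp1CartΔEx2 and 11.97 in Wt. The Xbp1 probe had medians of 10.94 in C/X, 11.68 in ColXN617K, 10.94 in Xbp1CartΔEx2 and 10.67 in Wt, and whether it lies in the deleted exon is not given in the sources used here, so it does not check the deletion. All 6 measured hypertrophic markers were detected on every array, and 5 or 6 of the 6 measured chondrocyte markers.

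Other cells of the growth plate border express lysosomal genes strongly, osteoclasts and macrophages most of all. Of 25 markers of osteoclasts and macrophages 11 were measured, and their summed intensity was 12940 to 28100 in C/X, 8671 to 13160 in ColXN617K, 43040 to 51810 in Xbp1CartΔEx2 and 29660 to 44640 in Wt. The sum is linear and set mostly by the bright genes Mmp9, Ctsk and Laptm5. Taken gene by gene against Wt, 9 of the 11 were lower in ColXN617K (median log2 difference -1.38) and 10 in C/X (-0.72). Nfatc1 and Aif1 were not lower in ColXN617K, nor was Aif1 in C/X. The osteoclast phosphatase Acp5 was not detected on any C/X or ColXN617K array, Lyz2 and Tyrobp were also undetected in C/X, and Aif1 was undetected in Wt. Of 10 endothelial markers 8 were measured, with sums of 902.1 to 3485 in C/X, 1023 to 1166 in ColXN617K, 16000 to 28140 in Xbp1CartΔEx2 and 7113 to 17380 in Wt. Pecam1 and Cdh5 were undetected in C/X, Pecam1, Cdh5 and Gpihbp1 in ColXN617K, and Pecam1 in Wt. Both sums were thus lower in every C/X and ColXN617K array than in every Wt and Xbp1CartΔEx2 array. In such tissue fewer cells of a type and less RNA per cell cannot be told apart.

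With the collagen X mutation and XBP1 present, the autophagosome genes Map1lc3a, Ulk1, Wipi1 and Atg16l1 and the hydrolase gene Glb1 fell, and the V-ATPase accessory gene Atp6ap2 rose. Calls follow the criteria of the study, a difference of 2-fold or more with an adjusted p no greater than 0.01. In ColXN617K against Wt this called 6 of the 39 members (1 higher, 5 lower), where 15% of all 7642 genes were called (7.45% higher, 7.58% lower), so the share of members was near that of the array. At an adjusted p of 0.05 with no minimum fold, 16 members passed (7 higher, 9 lower), where 31.1% of all genes did (16.3% higher, 14.8% lower). The count was 12 without ColXN617K replicate 3, which added Gabarap, Atg5, Becn1, Ctsz, Scarb2 and Atp6v1a, and 3 without ColXN617K replicate 2. It was 1 (Atp6ap2) when the arrays were scaled to a common median instead. For such refits, here and below, the share of all genes that passed was not computed, so their counts cannot be set against the array.

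In C/X against Wt, Sqstm1, Wipi2, Ctsa and Clcn7 rose and Glb1 fell, 5 of the 39 members where 12% of all genes were called (6.29% higher, 5.68% lower). With no minimum fold 8 members passed the looser threshold (6 higher, 2 lower), against 26% of all genes (13.3% higher, 12.7% lower). The count was 4 to 6 when each array was left out in turn and 2 (Ctsa and Clcn7) with scaling by array medians.

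XBP1 loss alone was accompanied by few calls, although 10 of the 11 lumen genes, Gusb among them, had a higher mean than in Wt, where 3807 of all 7642 genes did. In Xbp1CartΔEx2 against Wt, Gusb and Clcn7 rose, 2 of the 39 members where 1.81% of all genes were called (1.23% higher, 0.576% lower), and the looser threshold added Atp6v1b2 (3 members, all higher, against 7.39% of all genes, 4.62% higher and 2.77% lower). The Gusb probe passed the detection filter only through the Xbp1CartΔEx2 arrays and so had to be higher there, which leaves Clcn7 as the call among the 38 other members. The Clcn7 probe was not detected in Wt either, but the C/X arrays alone would have passed it. Without Wt replicate 1 Gusb was not called and the count was 1, and with scaling by array medians no member was called by limma (9 had an unadjusted p under 0.05, and the adjusted p of Clcn7 was 0.0217).

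Within the XBP1-deficient background the collagen X mutation gave 6 calls of the 39, where 14.5% of all genes were called (6.01% higher, 8.53% lower). Against Xbp1CartΔEx2, Sqstm1, Wipi2 and Ctsa rose in C/X, and Glb1, Gusb and Man2b1 fell. The fall of Gusb was fixed by the detection filter, which its probe passed through the Xbp1CartΔEx2 arrays alone, and without Gusb the count was 5 of 38. At the looser threshold 12 members passed (3 higher, 9 lower), against 27.6% of all genes (12.8% higher, 14.8% lower). The count was 5 to 7 when each array was left out, and 1 with scaling by array medians, where it was Gusb.

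Between the genotypes that both carry mutant collagen X, all 5 called members were higher without XBP1. In C/X against ColXN617K, Map1lc3a, Wipi1, Wipi2, Ctsa and Clcn7 rose, 5 of the 39 where 4.92% of all genes were called (2.88% higher, 2.04% lower). The looser threshold passed 11 members (7 higher, 4 lower, the lower ones being Atg5, Atp6v1d, Atp6v1e1 and Atp6v1h), against 14.6% of all genes (7.09% higher, 7.52% lower). The count was 10 without ColXN617K replicate 3, 2 without C/X replicate 1, and 3 without C/X replicate 3, ColXN617K replicate 1 or ColXN617K replicate 2. It was 0 when only the arrays of these genotypes entered the limma fit and 0 with scaling by array medians, where 16 and 12 members had an unadjusted p under 0.05. With the replicate number of the sample titles as a block and these genotypes alone, an analysis added after seeing the data, it was 3 (Map1lc3a, Wipi2 and Clcn7).

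**Figure D1:**
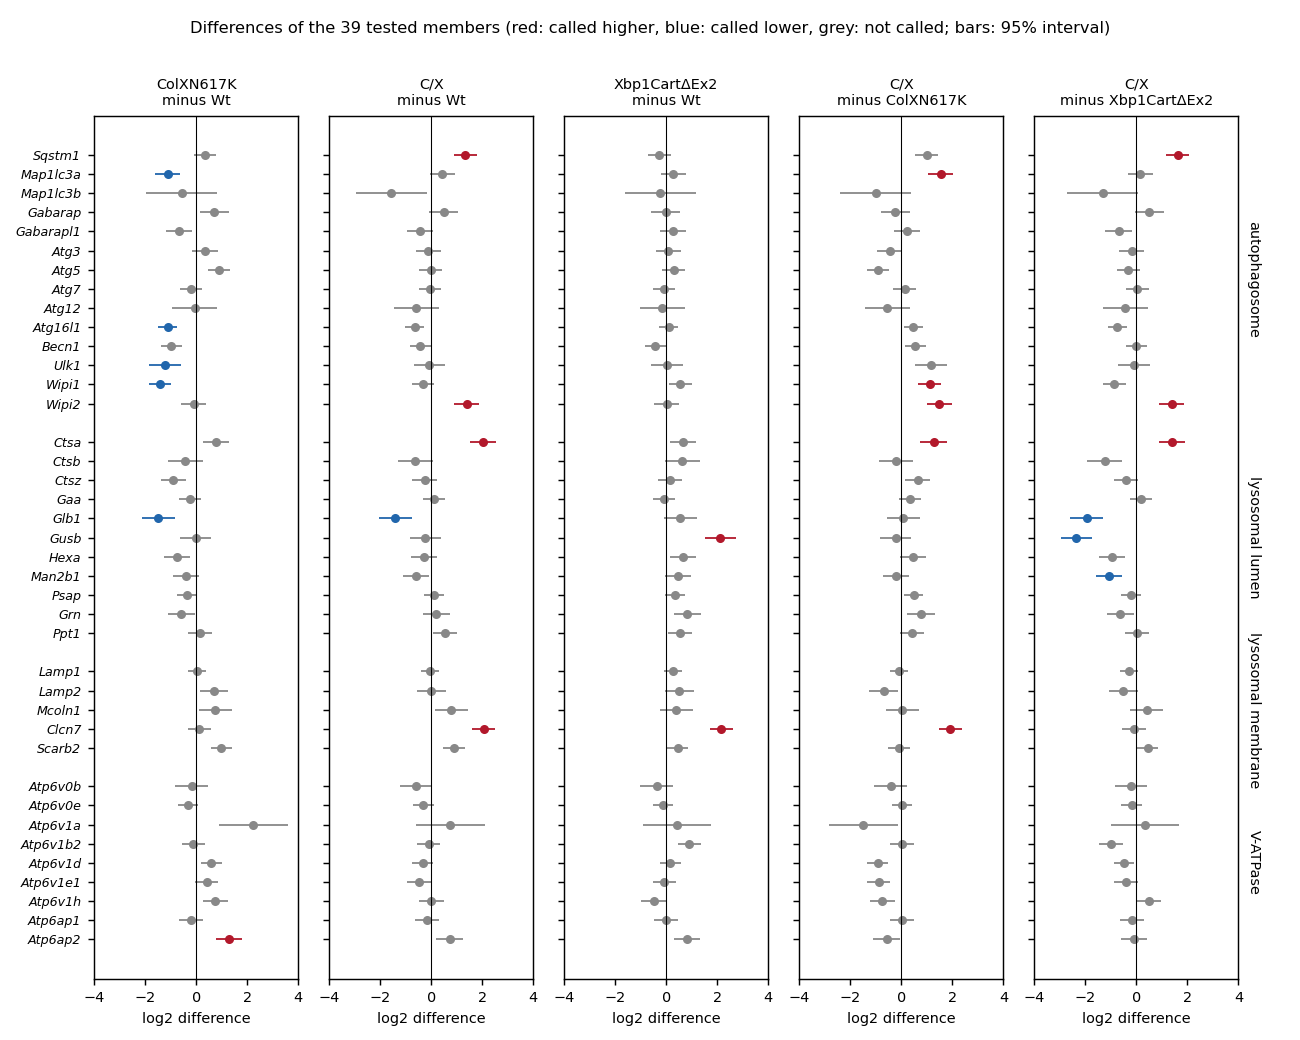
Log2 differences of the 39 tested members in 5 comparisons, ordered by role, with points for the estimate and bars for its 95% interval, red for genes called higher, blue for genes called lower and grey for genes not called. The blue points of ColXN617K minus Wt lie in the autophagosome group and at Glb1, and Clcn7 is red in C/X minus Wt, Xbp1CartΔEx2 minus Wt and C/X minus ColXN617K.

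Among the autophagosome genes, Sqstm1, the cargo receptor p62 that is itself degraded by autophagy, measured 11.52, 11.56 and 11.61 on the C/X arrays, 10.48, 10.40 and 10.84 in ColXN617K, 10.26, 9.86 and 9.74 in Xbp1CartΔEx2 and 10.03, 10.38 and 10.27 in Wt. The C/X arrays lay above all others, ColXN617K came next, and Xbp1CartΔEx2 and Wt overlapped. Sqstm1 rose 2.53-fold in C/X against Wt (log2 difference 1.34, SE 0.20, adjusted p = 0.000609) and 3.06-fold against Xbp1CartΔEx2 (1.61, SE 0.20, adjusted p = 0.000141). In C/X against ColXN617K its difference of 0.99 (SE 0.20, adjusted p = 0.00775) was just short of the minimum fold.

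Wipi2 binds phosphatidylinositol 3-phosphate on the forming membrane and brings ATG16L1 to it. Its brightest probe measured 11.50, 11.38 and 11.01 in C/X, 9.99, 9.71 and 9.75 in ColXN617K, 10.15, 9.55 and 10.06 in Xbp1CartΔEx2 and 10.15, 9.87 and 9.69 in Wt. The values of C/X were separate from the rest, and ColXN617K, Xbp1CartΔEx2 and Wt overlapped. Wipi2 rose by 1.40 log2 in C/X against Wt (SE 0.22, adjusted p = 0.000853), by 1.38 against Xbp1CartΔEx2 (SE 0.22, adjusted p = 0.000781) and by 1.48 against ColXN617K (SE 0.22, adjusted p = 0.00154). The second Wipi2 probe was called in the same 3 comparisons, and the call of the first against ColXN617K was lost without C/X replicate 1.

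Wipi1, a relative of Wipi2 that also binds the lipid, behaved otherwise. It measured 11.66, 11.30 and 11.73 in C/X, 10.55, 10.14 and 10.68 in ColXN617K, 12.57, 12.41 and 12.30 in Xbp1CartΔEx2 and 11.998, 11.77 and 11.86 in Wt. ColXN617K was lowest and Xbp1CartΔEx2 highest, with no overlap between any genotypes on this brightest probe. On the second Wipi1 probe ColXN617K was again lowest and Xbp1CartΔEx2 highest. There C/X (9.89 to 10.21) and Wt (10.03 to 10.14) overlapped, and ColXN617K replicate 3 was not detected. Wipi1 fell by 1.42 log2 in ColXN617K against Wt (SE 0.20, adjusted p = 0.0003), and C/X was higher than ColXN617K by 1.11 (SE 0.20, adjusted p = 0.00439). The call against ColXN617K was lost without C/X replicate 1 or 3 or ColXN617K replicate 1 or 2.

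Map1lc3a encodes LC3A, one of the ubiquitin-like proteins attached to the autophagosome membrane. It measured 11.57, 11.23 and 11.54 in C/X, 10.05, 9.69 and 9.97 in ColXN617K, 11.53, 11.03 and 11.32 in Xbp1CartΔEx2 and 11.41, 10.79 and 10.86 in Wt. All ColXN617K values lay below every other array, while C/X, Xbp1CartΔEx2 and Wt overlapped. Map1lc3a fell by 1.12 log2 in ColXN617K against Wt (SE 0.23, adjusted p = 0.003), a call lost without ColXN617K replicate 2 or Wt replicate 1, and it was higher in C/X than in ColXN617K by 1.55 (SE 0.23, adjusted p = 0.00124). The ubiquitously expressed LC3B gene Map1lc3b was not called, with 9.18, 9.24 and 6.53 in C/X, 9.84, 9.89 and 8.22 in ColXN617K, 9.80, 9.14 and 9.97 in Xbp1CartΔEx2 and 9.93, 10.08 and 9.63 in Wt. Replicate 3 of C/X and of ColXN617K were low within their genotypes for this probe.

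Ulk1, the kinase that starts autophagy, measured 10.64, 10.55 and 10.90 in C/X, 9.46, 8.93 and 10.23 in ColXN617K, 11.06, 10.57 and 10.76 in Xbp1CartΔEx2 and 10.84, 10.65 and 10.81 in Wt. Only the ColXN617K arrays were low, replicate 3 least so, and the other genotypes overlapped. Ulk1 fell by 1.23 log2 in ColXN617K against Wt (SE 0.29, adjusted p = 0.00679), but this call was lost on leaving out any of 8 of the 12 arrays, namely C/X replicate 1 or 2, ColXN617K replicate 1 or 2, Xbp1CartΔEx2 replicate 3 or any Wt array. A second Ulk1 probe was called in the same comparison.

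Atg16l1, the subunit that places the conjugation complex on the membrane, measured 11.05, 10.96 and 10.93 in C/X, 10.44, 10.45 and 10.66 in ColXN617K, 11.91, 11.69 and 11.58 in Xbp1CartΔEx2 and 11.73, 11.58 and 11.56 in Wt. Both genotypes with mutant collagen X lay below both genotypes without it, ColXN617K lowest. The fall in ColXN617K against Wt was 1.11 log2 (log2 difference -1.11, SE 0.17, adjusted p = 0.000537). For C/X the difference from Wt was -0.65 (SE 0.17, adjusted p = 0.0165) and that from Xbp1CartΔEx2 was -0.75 (SE 0.17, adjusted p = 0.00685), both under the minimum fold.

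Of the 8 autophagosome genes not called in any comparison, the smallest adjusted p in ColXN617K against Wt belonged to Becn1, a subunit of the lipid kinase that makes phosphatidylinositol 3-phosphate (-0.97, SE 0.19, adjusted p = 0.00242), to Atg5 (0.90, SE 0.20, adjusted p = 0.0058) and to the LC3 relative Gabarapl1 (-0.68, SE 0.24, adjusted p = 0.0473). The dimmer probe of Atg5 was called in C/X against ColXN617K, in the direction of the brighter one, and the brighter was not. The dimmer probe of Becn1 also had its lowest mean in ColXN617K, but the ColXN617K arrays (6.89 to 7.64) overlapped every other genotype. Atg3 and Atg7, the enzymes that load LC3, were each detected on 3 arrays and had no call. Over the 14 genes the median difference in ColXN617K against Wt was -0.38 under quantile normalization and 0.34 under scaling by array medians, where the median of all probes was 0.77, that is -0.44 relative to all probes. The median was -0.09 in C/X against Wt and 0.02 in Xbp1CartΔEx2 against Wt. Over all 7642 genes the medians were -0.04 in C/X, -0.04 in ColXN617K and -0.0034 in Xbp1CartΔEx2. The summed intensity of the 6 hypertrophic markers was 18260 to 21870 in C/X, 8878 to 12490 in ColXN617K, 49560 to 58870 in Xbp1CartΔEx2 and 40630 to 52540 in Wt, so it was lowest in the genotype in which the autophagosome genes fell, and its part in those falls was not tested.

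**Figure D2:**
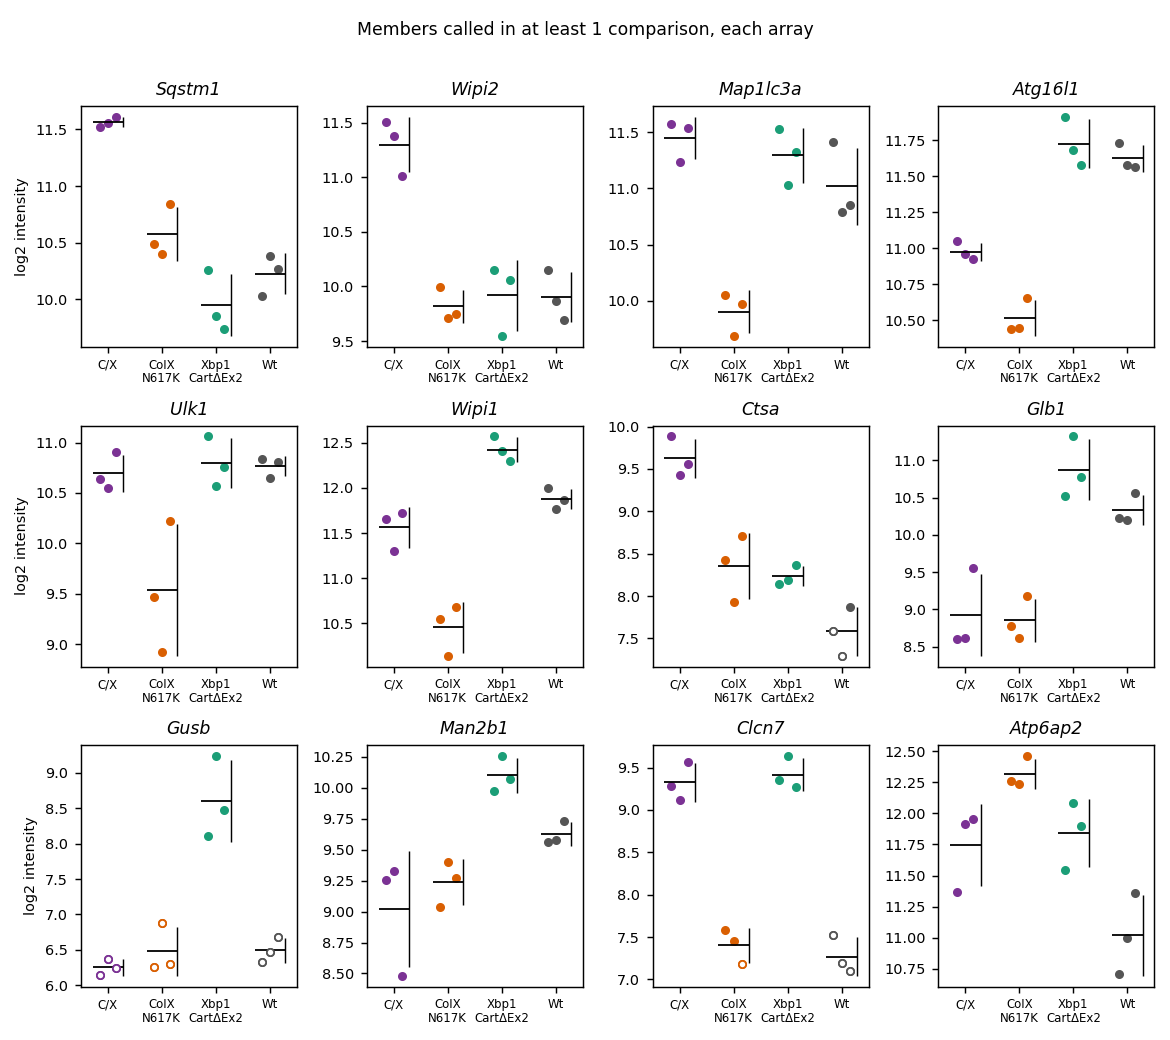
Log2 intensity of the brightest probe of the 12 members called in at least 1 comparison, 1 point per array with the genotype mean as a line and its SD as a bar, and open points where the detection score was 0.95 or less. The C/X points of Sqstm1, Wipi2 and Ctsa lie above all other points, and the Gusb probe was detected only on the Xbp1CartΔEx2 arrays.

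Among the genes of the lysosomal lumen, Ctsa and Glb1 moved in opposite directions, although cathepsin A is the protective protein that holds β-galactosidase, the product of Glb1, in a stable complex. Ctsa measured 9.88, 9.43 and 9.56 in C/X, 8.43, 7.93 and 8.71 in ColXN617K, 8.15, 8.18 and 8.37 in Xbp1CartΔEx2 and 7.59, 7.30 and 7.87 in Wt, where it was detected on 1 of 3 arrays. Its C/X values were above all others and its Wt values below all others. Ctsa rose by 2.04 log2 in C/X against Wt (SE 0.24, adjusted p = 9.72e-05), by 1.39 against Xbp1CartΔEx2 (SE 0.24, adjusted p = 0.00108) and by 1.27 against ColXN617K (SE 0.24, adjusted p = 0.00493). The last call was lost without any one of the C/X arrays or ColXN617K replicate 1 or 2.

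Glb1 measured 8.60, 8.61 and 9.56 in C/X, 8.77, 8.61 and 9.18 in ColXN617K, 10.53, 11.32 and 10.78 in Xbp1CartΔEx2 and 10.23, 10.19 and 10.56 in Wt. No C/X or ColXN617K array reached the level of any Wt or Xbp1CartΔEx2 array. Glb1 fell by 1.48 log2 in ColXN617K against Wt (SE 0.30, adjusted p = 0.00288), by 1.40 in C/X against Wt (SE 0.30, adjusted p = 0.00463) and by 1.95 in C/X against Xbp1CartΔEx2 (SE 0.30, adjusted p = 0.000495). The call in ColXN617K was lost without ColXN617K replicate 1 or 2 or Wt replicate 1 or 3, and the call in C/X against Wt without C/X replicate 1 or 2 or any Wt array. The sums of osteoclast, macrophage and endothelial markers given above were low on the same arrays, and their part in the fall of Glb1 was not tested.

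Gusb, which encodes β-glucuronidase, was at 6.14, 6.38 and 6.24 in C/X, 6.26, 6.87 and 6.31 in ColXN617K, 8.10, 9.23 and 8.48 in Xbp1CartΔEx2 and 6.33, 6.46 and 6.67 in Wt. It was detected on all 3 Xbp1CartΔEx2 arrays and on none of the other 9, so that only bounds can be given for its ratios. A bound sets the bright genotype's mean against the lowest detected signal of each dim array, or the probe's own value where that was higher. Gusb was at least 1.95-fold higher in Xbp1CartΔEx2 than in Wt and at least 2.48-fold lower in C/X than in Xbp1CartΔEx2. Both directions were fixed by the filter on detection, so these bounds are a description and no test is given for them. Across the 12 arrays the members most like it were Atp6v1b2 (Pearson r 0.961), Ctsb (0.809) and Man2b1 (0.809), as a description in which the genotypes themselves set most of the spread. The osteoblast marker sum was likewise high in Xbp1CartΔEx2, at 6189 to 18640 against 2277 to 2773 in Wt, with 5 of 7 markers measured, and its part in the level of Gusb was not tested.

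Man2b1, the lysosomal α-mannosidase gene, measured 9.25, 9.33 and 8.48 in C/X, 9.04, 9.40 and 9.27 in ColXN617K, 9.97, 10.25 and 10.07 in Xbp1CartΔEx2 and 9.56, 9.58 and 9.73 in Wt with its brighter probe. The C/X values lay below those of Xbp1CartΔEx2 and Wt. Man2b1 fell by 1.08 log2 in C/X against Xbp1CartΔEx2 (SE 0.23, adjusted p = 0.00466), a call lost without C/X replicate 3 or any Xbp1CartΔEx2 array. Its second probe read 8.70, 8.67 and 8.06 in C/X, 8.26, 8.17 and 9.16 in ColXN617K, 9.56, 10.40 and 9.80 in Xbp1CartΔEx2 and 6.22, 8.43 and 8.11 in Wt. The probes shared the direction in C/X against Xbp1CartΔEx2 (-1.08 and -1.44) and disagreed in C/X against Wt (-0.60 and 0.89) and in ColXN617K against Wt (-0.39 and 0.94), where neither was called.

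Of the 7 lumen genes without a call, the smallest adjusted p in ColXN617K against Wt belonged to the carboxypeptidase gene Ctsz (-0.89, SE 0.22, adjusted p = 0.00971), to Hexa, a β-hexosaminidase subunit (-0.75, SE 0.23, adjusted p = 0.0281), and to Grn, which encodes progranulin (-0.58, SE 0.24, adjusted p = 0.0907). Psap, the saposin precursor, measured 13.68, 13.54 and 13.82 in C/X, 13.42, 13.10 and 13.09 in ColXN617K, 13.95, 13.94 and 13.84 in Xbp1CartΔEx2 and 13.60, 13.42 and 13.70 in Wt. The median over the 11 lumen genes was 0.55 in Xbp1CartΔEx2 against Wt and -0.63 in C/X against Xbp1CartΔEx2. These signs were the same under cyclic loess (0.62 and -0.65) and scaling by array medians (0.98 and -0.67). In ColXN617K against Wt it was -0.39, and 0.27 with scaling by array medians, or -0.50 relative to all probes. The genotype order of the lumen median, ColXN617K lowest and Xbp1CartΔEx2 highest, was also that of the osteoclast and macrophage marker sum. The medians of that sum were 17420 in C/X, 11790 in ColXN617K, 43640 in Xbp1CartΔEx2 and 36410 in Wt. The medians of the endothelial and hypertrophic marker sums had the same order, and the part of any of these cells was not tested.

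**Figure D3:**
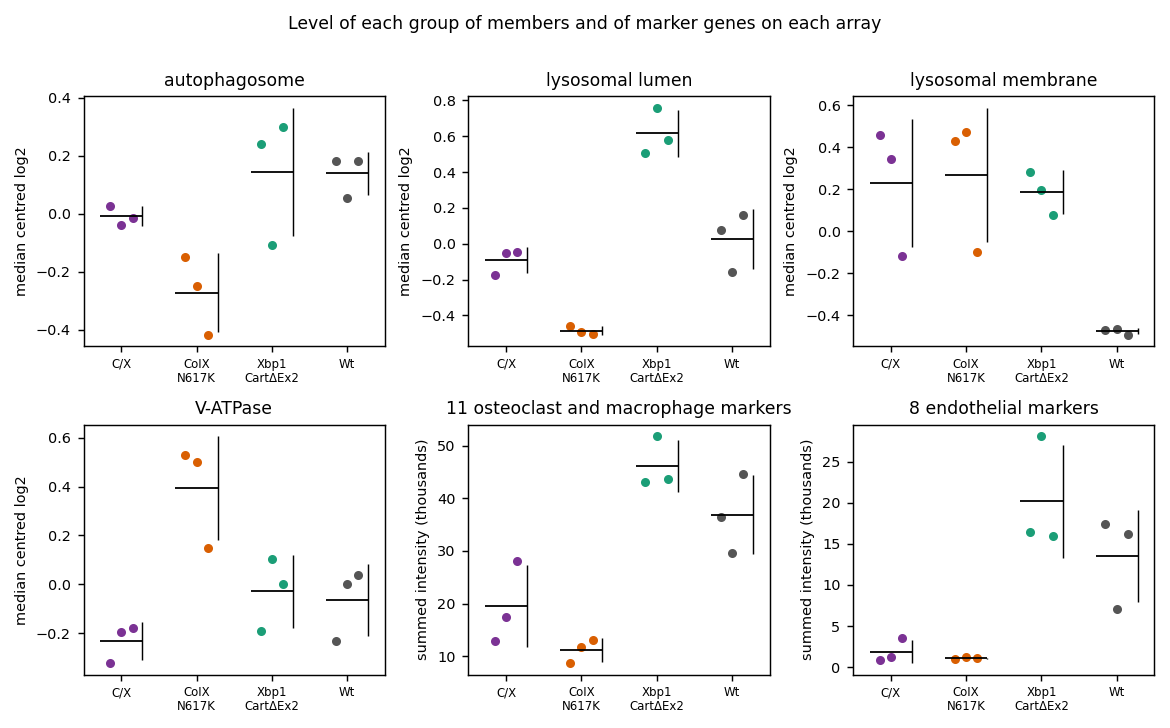
Median over genes of the log2 intensity centred on each gene's mean, for the 4 groups of members, and summed linear intensity of 11 osteoclast and macrophage and 8 endothelial markers, 1 point per array with genotype mean and SD. The lumen medians run from -0.50 to -0.46 in ColXN617K and from 0.51 to 0.76 in Xbp1CartΔEx2, and both marker sums are lower in C/X and ColXN617K than in Xbp1CartΔEx2 and Wt.

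Of the lysosomal membrane genes, Clcn7 differed most, and it followed the Xbp1 genotype rather than the collagen X genotype. Clcn7 encodes the chloride and proton exchanger of lysosomes, which osteoclasts need for bone resorption. It measured 9.29, 9.12 and 9.57 in C/X and 9.35, 9.63 and 9.27 in Xbp1CartΔEx2, against 7.58, 7.45 and 7.18 in ColXN617K and 7.52, 7.19 and 7.10 in Wt. The genotypes without XBP1 lay wholly above those with it, C/X and Xbp1CartΔEx2 overlapped, and so did ColXN617K and Wt. The probe was detected on every C/X and Xbp1CartΔEx2 array, on 2 of 3 ColXN617K arrays and on none of the Wt arrays. The lowest detected signal was higher on the Wt arrays than on those 2 ColXN617K arrays. Without the C/X and Xbp1CartΔEx2 arrays together it would have missed the detection filter. The filter thus favoured a probe that is high in both, while the arrays of either genotype alone were enough to pass it.

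Against Wt, Clcn7 was at least 3.21-fold higher in C/X (limma, adjusted p = 3.28e-05) and at least 3.42-fold higher in Xbp1CartΔEx2 (adjusted p = 0.000202). Against ColXN617K, Clcn7 rose in C/X by 1.92 log2 (SE 0.21, adjusted p = 0.000223). Between C/X and Xbp1CartΔEx2 the difference was -0.09 (SE 0.21, 95% interval -0.55 to 0.36). No array left out ended any of the called differences of Clcn7. The osteoclast and macrophage marker sum was 12940 to 28100 in C/X and 43040 to 51810 in Xbp1CartΔEx2, against 29660 to 44640 in Wt, so that of the genotypes with high Clcn7 it lay below Wt in C/X and in or above the range of Wt in Xbp1CartΔEx2, and its part in the level of Clcn7 was not tested.

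The other 4 membrane genes had no call. Scarb2 encodes LIMP-2, which carries β-glucocerebrosidase to lysosomes, and measured 10.12, 10.00 and 9.79 in C/X, 10.09, 10.25 and 9.85 in ColXN617K, 9.63, 9.56 and 9.39 in Xbp1CartΔEx2 and 9.30, 9.02 and 8.92 in Wt. All 3 mutant genotypes lay above Wt, and C/X and ColXN617K overlapped. The difference from Wt was 0.98 in ColXN617K (SE 0.19, adjusted p = 0.00248) and 0.89 in C/X (SE 0.19, adjusted p = 0.00546), under the minimum fold. Lamp2, a main glycoprotein of the membrane, had 5 probes that disagreed in ColXN617K against Wt, from -0.40 to 0.99. Lamp1 differed from Wt by 0.04 in ColXN617K (SE 0.16, adjusted p = 0.853), and the calcium channel gene Mcoln1 was not detected on any Xbp1CartΔEx2 or Wt array.

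Among the V-ATPase genes only Atp6ap2, an accessory protein needed for assembly of the pump, was called. It measured 11.37, 11.91 and 11.95 in C/X, 12.26, 12.23 and 12.46 in ColXN617K, 11.54, 12.08 and 11.90 in Xbp1CartΔEx2 and 10.71, 10.999 and 11.36 in Wt. ColXN617K was above all other arrays, and Wt was below all others. Atp6ap2 rose by 1.30 log2 in ColXN617K against Wt (SE 0.24, adjusted p = 0.00163), with the call kept whichever array was left out. For C/X against Wt its difference was 0.72 (SE 0.24, adjusted p = 0.0423).

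Atp6v1a, the catalytic subunit of the pump, differed widely among the ColXN617K arrays. It measured 6.73, 7.30 and 5.92 in C/X, 8.98, 9.17 and 6.25 in ColXN617K, 5.93, 6.74 and 6.26 in Xbp1CartΔEx2 and 5.84, 5.94 and 5.91 in Wt. Only ColXN617K replicates 1 and 2 and C/X replicate 2 were above the detection threshold, so the ratio in ColXN617K against Wt was at least 1.41-fold. Without the ColXN617K arrays the probe would have missed the detection filter. The filter thus favoured this direction, so the bound is a description and no test is given for it. The same limit applies to its place among the members at the looser threshold and to its call without ColXN617K replicate 3. Atp6v1h, a regulatory subunit, differed by 0.75 in ColXN617K against Wt (SE 0.22, adjusted p = 0.0238), and Atp6v1d, a subunit of the central rotor, by 0.59 (SE 0.19, adjusted p = 0.0317).

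Atp6v1b2, a subunit of the catalytic head, measured 11.07, 11.10 and 11.21 in C/X, 11.12, 11.33 and 10.85 in ColXN617K, 11.89, 12.34 and 12.13 in Xbp1CartΔEx2 and 11.16, 10.98 and 11.51 in Wt. Xbp1CartΔEx2 lay above all other arrays and the rest overlapped, with a difference of 0.90 from Wt (adjusted p = 0.0238) and of -0.99 in C/X against Xbp1CartΔEx2 (adjusted p = 0.00408), both under the minimum fold.

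The median over the 9 V-ATPase genes was 0.41 in ColXN617K against Wt (0.34 with cyclic loess, 1.22 with scaling by array medians). In C/X against ColXN617K it was -0.57 (-0.59 and -1.16). In C/X against Wt it was -0.17, and 0.12 with scaling by array medians. Relative to all probes, the values with scaling by array medians were 0.45, -0.86 and -0.27 in the same order. The groups of members thus stood in different order by genotype. ColXN617K had the lowest lumen and autophagosome medians and the highest V-ATPase median under quantile normalization, with no overlap with any other genotype's arrays. With scaling by array medians the order against Wt turned for the lumen and autophagosome groups. Their medians in ColXN617K against Wt were then 0.27 and 0.34, but -0.50 and -0.44 relative to all probes.

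**Figure D4:**
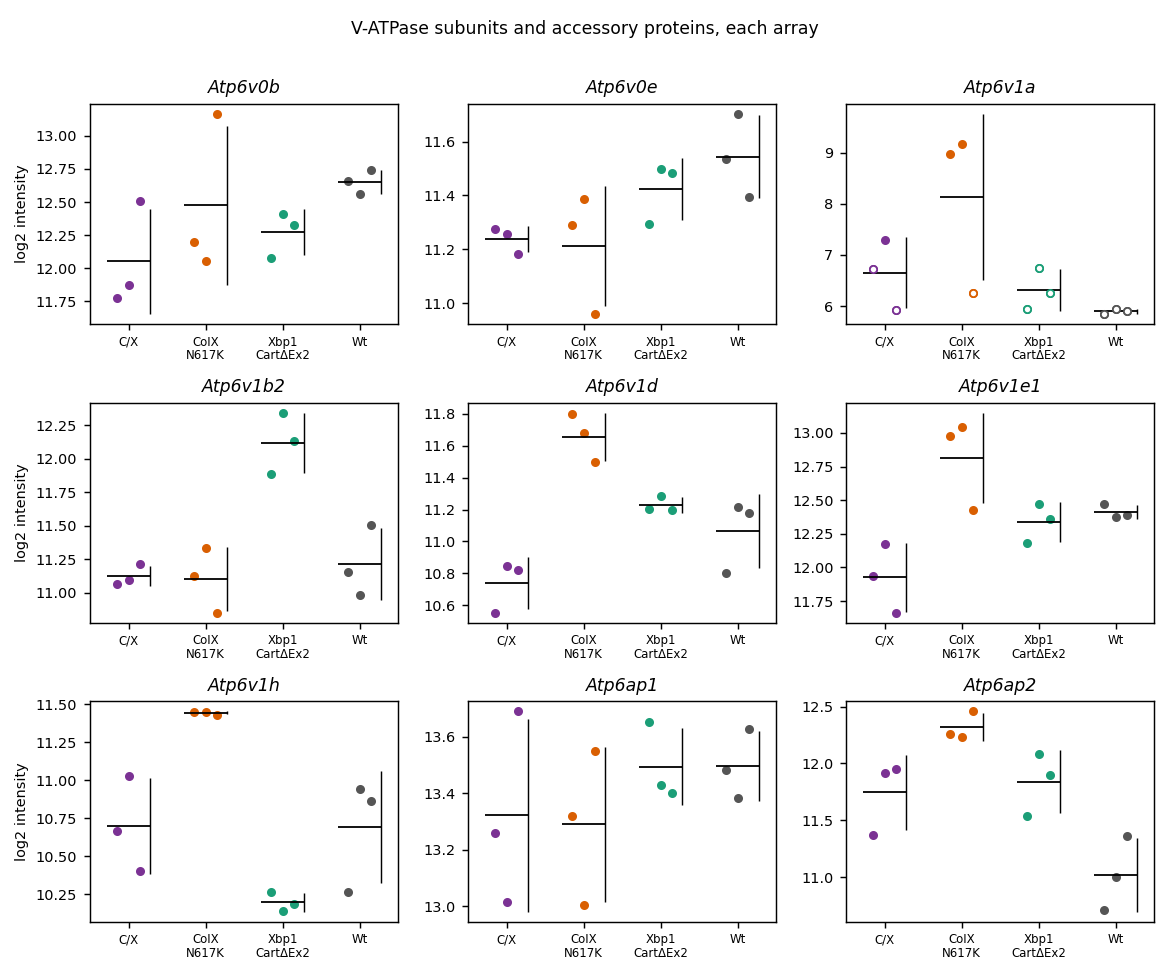
Log2 intensity of the brightest probe of the 9 V-ATPase genes, 1 point per array with the genotype mean as a line and its SD as a bar, and open points where the detection score was 0.95 or less. Atp6ap2 is highest in ColXN617K, and the Atp6v1a points of ColXN617K lie at 8.98, 9.17 and 6.25.

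Whether the collagen X mutation acted on the members differently with and without XBP1 was asked by the interaction, that is, the difference C/X minus Xbp1CartΔEx2 less the difference ColXN617K minus Wt, which share no array. It was called for 1 of the 39 members, where 1.48% of all genes were called (0.694% higher, 0.785% lower). That member was Gusb, whose probe was tested only because it was high in Xbp1CartΔEx2, so the sign was fixed by the filter and nothing is read from the call. Among the 38 others limma called 0, with 11 at an unadjusted p under 0.05, where 1840 of all 7642 genes were. At an adjusted p of 0.05 with no minimum fold 8 members passed (4 higher, 4 lower), against 7.18% of all genes (3.04% higher, 4.15% lower). Without Gusb 7 passed. They were Sqstm1 (1.27, SE 0.29, adjusted p = 0.0234), Wipi2 (1.47, SE 0.32, adjusted p = 0.0188), Map1lc3a (1.27, SE 0.32, adjusted p = 0.033) and Becn1 (0.97, SE 0.27, adjusted p = 0.0482), with larger values without XBP1, and Atg5, Atp6v1d and Atp6ap2 with smaller values. The 4 with larger values were all autophagosome genes. Without ColXN617K replicate 3 the interaction was called for 6 members, and with scaling by array medians or cyclic loess for 0 by limma (10 and 15 at an unadjusted p under 0.05). Side by side, 19 of the 39 members were lower in both contrasts of the collagen X mutation, 8 were higher in both, 8 were higher only with XBP1 and 4 only without it.

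**Figure D5:**
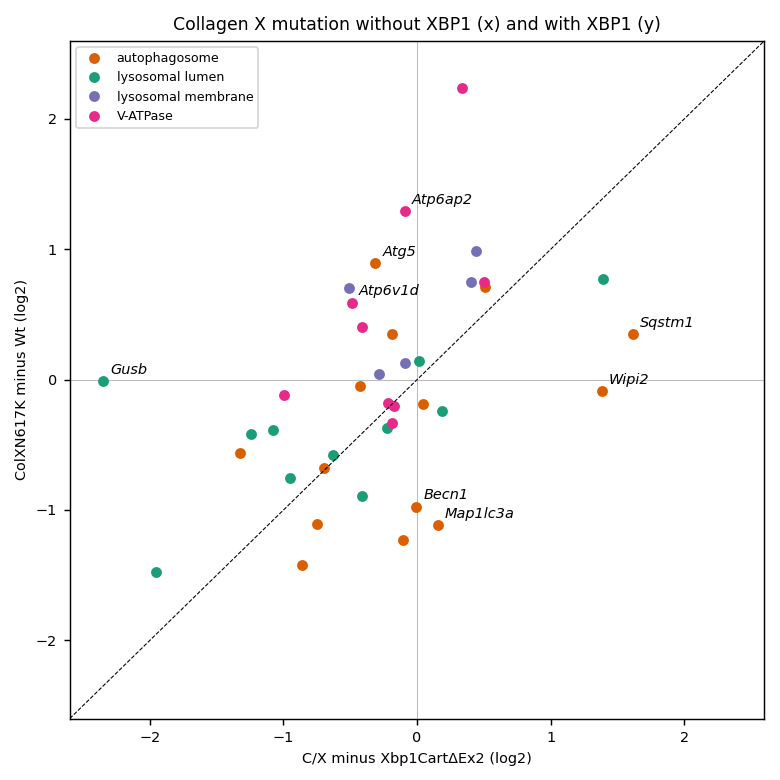
Log2 effect of the collagen X mutation without XBP1 (C/X minus Xbp1CartΔEx2, horizontal) and with XBP1 (ColXN617K minus Wt, vertical), 1 point per member coloured by role, with the dashed line where both are equal and names for the 8 members whose interaction had an adjusted p of 0.05 or less. Sqstm1 and Wipi2 lie right of the line, and Gusb, whose place the detection filter fixed, lies far left of it.

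Further genes of the same pathway were counted from lists that did not hold the members. Of 28 other autophagy genes tested, 6 were called in C/X against Wt (4 higher, 2 lower), 3 in ColXN617K against Wt (2 higher, 1 lower) and none in Xbp1CartΔEx2 against Wt by limma, where 4 had an unadjusted p under 0.05. Over all genes 12% were called in C/X against Wt, 15% in ColXN617K against Wt and 1.81% in Xbp1CartΔEx2 against Wt. In the last comparison 1801 of all 7642 genes had an unadjusted p under 0.05. Ulk2, a second initiating kinase, fell in both genotypes with mutant collagen X, by 1.58 log2 in C/X (SE 0.26, adjusted p = 0.000934) and by 1.31 in ColXN617K (SE 0.26, adjusted p = 0.00255). Vmp1, an ER membrane protein needed to form autophagosomes, and Tex264, a receptor for autophagy of the ER, rose in both, Vmp1 by 1.18 in C/X and 1.63 in ColXN617K, and Tex264 by 1.20 in C/X and 1.52 in ColXN617K. Atg2a, a lipid transfer protein of the growing membrane, rose by 1.04 in C/X against Wt (SE 0.23, adjusted p = 0.00619). Stx17, which drives fusion with the lysosome, fell by 1.19 (SE 0.27, adjusted p = 0.00794). Atg4d, a protease of the LC3 family, was at least 1.29-fold higher in C/X than in Wt. Without the C/X arrays the Atg4d probe would have missed the detection filter. The filter thus favoured this direction, so the bound is a description and no test is given for it. The same limit applies to its place among the 4 genes called higher in C/X against Wt.

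Of 18 other lumen genes, 6 were called in C/X against Wt (3 higher, 3 lower), 6 in ColXN617K against Wt (2 higher, 4 lower) and 6 in C/X against Xbp1CartΔEx2 (2 higher, 4 lower), where 12%, 15% and 14.5% of all genes were called. Arsb, arylsulfatase B, which degrades dermatan and chondroitin sulfate, fell most. It measured 7.92, 8.45 and 9.21 in C/X, 7.72, 8.85 and 8.64 in ColXN617K, 12.08, 12.40 and 12.36 in Xbp1CartΔEx2 and 10.00, 10.67 and 11.32 in Wt, and C/X and ColXN617K did not overlap with Xbp1CartΔEx2 or Wt. Prcp, a carboxypeptidase, and Ctsh, cathepsin H, fell in the same 3 comparisons. Lgmn, the endopeptidase legumain, fell by 2.07 in ColXN617K against Wt (SE 0.26, adjusted p = 0.000111) and was higher in C/X than in ColXN617K by 1.73 (SE 0.26, adjusted p = 0.0013). Acp2, lysosomal acid phosphatase, rose by 1.64 in C/X and 1.54 in ColXN617K against Wt, and Hyal1, a hyaluronidase, rose by 1.57 in C/X against Wt (SE 0.26, adjusted p = 0.000916).

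Of 21 other membrane genes, 3 were called in C/X against Wt, 3 in ColXN617K against Wt and 1 in Xbp1CartΔEx2 against Wt, near the shares over all genes of 12%, 15% and 1.81%. Npc1, the protein that exports cholesterol from lysosomes, was called in all 3. It measured 11.61, 11.61 and 11.64 in C/X, 12.64, 12.75 and 12.88 in ColXN617K, 10.89, 10.67 and 10.80 in Xbp1CartΔEx2 and 9.81, 9.94 and 9.39 in Wt, with no overlap between genotypes. Against Wt it rose by 1.91 log2 in C/X (SE 0.19, adjusted p = 2.75e-05), by 3.04 in ColXN617K (SE 0.19, adjusted p = 8.92e-07) and by 1.07 in Xbp1CartΔEx2 (SE 0.19, adjusted p = 0.00709). Cln3, a membrane protein of lysosomes, fell by 1.68 in C/X against Wt (SE 0.30, adjusted p = 0.0016). Ostm1, the subunit that partners CLC-7, fell by 1.62 in C/X against Xbp1CartΔEx2 (SE 0.32, adjusted p = 0.0026), a comparison in which Clcn7 itself had -0.09, and Cd164, a sialomucin of endosomes, fell by 1.45 (SE 0.34, adjusted p = 0.00791). Igf2r, the mannose 6-phosphate receptor that delivers hydrolases, was at least 2.73-fold higher in C/X than in ColXN617K (adjusted p = 0.00537). The peptide transporter gene Abcb9 was at least 1.61-fold higher in ColXN617K than in Wt. Without the ColXN617K arrays the Abcb9 probe would have missed the detection filter. The filter thus favoured this direction, so the bound is a description and no test is given for it. The same limit applies to its place among the 3 genes called in ColXN617K against Wt.

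Of 6 other V-ATPase genes, 3 were called in ColXN617K against Wt and none in the other comparisons by limma, where 15% of all genes were called in ColXN617K against Wt. The membrane subunits Atp6v0a1 and Atp6v0a2 rose by 1.28 (SE 0.28, adjusted p = 0.00533) and 1.29 (SE 0.21, adjusted p = 0.000764), and the peripheral subunit Atp6v1g1 fell by 1.70 (SE 0.36, adjusted p = 0.00378). At an unadjusted p under 0.05, 1 of the 6 passed in C/X against Wt, 4 in Xbp1CartΔEx2 against Wt, 2 in C/X against Xbp1CartΔEx2, 6 in C/X against ColXN617K and 5 in the interaction. Of all 7642 genes 2875, 1801, 2924, 2238 and 1840 did so in the same comparisons. Another list held mTORC1 signalling, the TFEB family and Foxo1, which set autophagy by nutrient state, and 11 of its genes were tested. Of the TFEB family only Mitf was among them, since Tfe3 and Tfec were not tested and Tfeb had no named probe. Only Fnip1, a partner of folliculin, was called. Over all genes 15% were called in ColXN617K against Wt and 1.48% in the interaction. Fnip1 rose by 2.10 in ColXN617K against Wt (SE 0.28, adjusted p = 0.000189), and its interaction was -2.15 (SE 0.40, adjusted p = 0.00936).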

How the data were processed

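Per the labels, RNA of microdissected hypertrophic zones was amplified, labelled and hybridised to single-colour Illumina arrays. The authors deposited raw probe intensity values for 12 arrays (45281 probes), a detection score per probe and array that behaves as 1 minus the detection p, and a table of 11338 log2 values that the authors background-corrected and normalized with limma's neqc. The detection scores were used to estimate background and as a filter only.

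The deposited intensities were normalized again with neqc (limma 3.58.1, R 4.3.3, offset 16, quantile). These values differed from the deposited log2 values by at most 0.0339. Probes with a score above 0.95 on 3 or more arrays were tested (12023). Gene names came from the platform annotation, which names only probes of the authors' table, and 2157 tested probes had no single symbol. Of several probes of a gene the brightest stands for it.

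A limma model with 1 mean per genotype over all 12 arrays gave each difference, its SE and a p adjusted by Benjamini-Hochberg over all tested probes (8 residual degrees of freedom). Bars give 95% intervals. The number of arrays limits the precision. On simulated arrays with 50 probes changed at each fold in ColXN617K against Wt (12023 probes), both criteria recovered 8% at a fold of 2, 70% at 4 and 86% at 8. Far fewer probes were changed there than the 1740 called in the data, so the adjusted p was harder to reach. A fold of 2 also lies on the fold criterion itself. These shares are therefore not the power of the comparisons above.

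Values per array are given for members called at least once, and for uncalled members the 3 of each role with the smallest adjusted p in ColXN617K against Wt. Psap, Map1lc3b, Lamp1, Atg3, Atg7 and Atp6v1b2 and the values per array of Scarb2, Atp6v1a, Arsb and Npc1 were added after their values were seen. Other pathway genes were named where called, up to 6 a list by size of change. The members and lists were chosen with earlier results of these data known. Alternatives in background correction, offset, scaling, filter, samples, weights, moderation, replicate blocks, thresholds and arrays left out are given at the end. Deviations of same-numbered C/X and ColXN617K arrays, by the sample titles, correlated at 0.37 to 0.66 in all 3 pairs, so a fit with that number as a block was added for this comparison, and no other pair of genotypes met this in all its pairs with a shared number from the titles. Promoter sequences are from RefSeq.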

Additional observations from a re-analysis of the deposited data

Results flagged for a closer look

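Members were singled out where the effect of the collagen X mutation differed with and without XBP1, by the interaction of the limma fit at an adjusted p of 0.05 or less. These were Wipi2 (1.47, SE 0.32, adjusted p = 0.0188), Sqstm1 (1.27, SE 0.29, adjusted p = 0.0234), Atg5 (-1.21, SE 0.29, adjusted p = 0.0264), Atp6ap2 (-1.39, SE 0.34, adjusted p = 0.0285), Atp6v1d (-1.08, SE 0.27, adjusted p = 0.0304), Map1lc3a (1.27, SE 0.32, adjusted p = 0.033) and Becn1 (0.97, SE 0.27, adjusted p = 0.0482). Values are log2 differences, C/X minus Xbp1CartΔEx2 less ColXN617K minus Wt. For Sqstm1 and Wipi2 the C/X arrays alone were high, and for Map1lc3a and Becn1 the ColXN617K arrays were lowest. On the dimmer probe of Becn1 the ColXN617K arrays overlapped every other genotype. For Atg5, Atp6v1d and Atp6ap2 the ColXN617K arrays were highest. Gusb also met this threshold, with a fitted difference of -2.34, but its probe was detected only on the Xbp1CartΔEx2 arrays and was tested only through them, so the sign was fixed by the filter and the fitted difference is no measured level.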

How the results depend on the processing

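All 25 calls of members kept their direction in all 679 recomputed values, and 108 of those values no longer passed both criteria. Called members, in the order ColXN617K against Wt, C/X against Wt, Xbp1CartΔEx2 against Wt, C/X against Xbp1CartΔEx2, C/X against ColXN617K and interaction, numbered 6, 5, 2, 6, 5 and 1. With scaling by array medians they numbered 1, 2, 0, 1, 0 and 0, where the median of all tested probes was 0.77, 0.40, 0.34, 0.06, -0.30 and -0.73 (cyclic loess 0.11 in ColXN617K against Wt and -0.11 in the interaction). Without background correction they numbered 2 in ColXN617K against Wt, 3 in C/X against Wt, 1 in Xbp1CartΔEx2 against Wt, 2 in C/X against ColXN617K and 3 in the interaction. Array weights gave 10 in ColXN617K against Wt, 8 in C/X against ColXN617K and 10 in the interaction. A fit of only the compared genotypes gave 0 in C/X against ColXN617K, and the interaction was called for 0 members with cyclic loess and with no filter. At an unadjusted p under 0.05 these counts of 0 became 9, 12 and 10 with scaling by array medians, 16 for the compared genotypes alone, 15 with cyclic loess and 17 with no filter. At an adjusted p of 0.05 with no minimum fold the counts were 16, 8, 3, 12, 11 and 8, and with the minimum fold 7 in the interaction.

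Leaving out each array in turn gave 3 to 12 in ColXN617K against Wt, 4 to 6 in C/X against Wt, 1 to 2 in Xbp1CartΔEx2 against Wt, 5 to 7 in C/X against Xbp1CartΔEx2, 2 to 10 in C/X against ColXN617K and 0 to 6 in the interaction. Of the 25 calls, 15 were kept whichever array was left out. Without both ColXN617K replicate 3 and C/X replicate 3 the counts were 12 in ColXN617K against Wt, 9 in C/X against ColXN617K and 8 in the interaction.

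The replicate numbers of the sample titles and of their descriptions differ, and for most comparisons neither pairs the mice, since deviations of same-numbered arrays correlated at -0.33 to 0.66 (7 of 18 pairs over 0.1) and at -0.63 to 0.43 (6 of 14). The title numbers of C/X and ColXN617K did deviate together, and the replicate block over these genotypes alone, chosen after seeing the data, gave 3 in C/X against ColXN617K. The replicate block by title over all arrays changed no count by over 1.5 times, and the block by description gave 3 in ColXN617K against Wt, 3 in C/X against Wt and 0 in the interaction. A BeadChip block was not run, as the column names used here give no chip. The other alternatives left each count within 1.5 times. Probes near background, such as those of Atg3, Atg7, Mcoln1 and Atp6v1a, give bounds rather than levels.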
